A study of Mus musculus with 6 samples.

Results

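The 10 genes described here encode Toll-like receptors, their co-receptors for lipopolysaccharide and the adaptor they share. They were taken by symbol (Tlr1, Tlr2, Tlr4, Tlr6, Tlr7, Tlr9, Tlr13, Cd14, Ly96 and Myd88), and all 10 are among the 13254 genes listed for the series. They were measured by RNA sequencing of BMDMs, macrophages that mature in culture from bone marrow precursors. There were 3 samples from wild-type (WT) mice and 3 from knockout (KO) mice lacking the microRNA cluster miR-130b/301b. No stimulus, strain, age or sex is named in the labels. Separate animals are not stated either, so the spread behind each p-value is that among these samples and may be technical. Values are deposited CPM, the authors' counts per gene scaled by library, and runs of 3 values follow replicates 1, 2 and 3.

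Toll-like receptors recognise conserved molecules of microbes and start the inflammatory response of macrophages. One class sits on the cell surface: TLR4 senses lipopolysaccharide with the help of CD14 and MD-2 (the product of Ly96), and TLR2 senses bacterial lipoproteins as a pair with TLR1 or TLR6. The other class sits in endosomes and senses nucleic acids: TLR7 binds single-stranded RNA, TLR9 binds DNA rich in unmethylated CpG, and mouse TLR13 binds bacterial ribosomal RNA. Endosomal receptors are carried out of the endoplasmic reticulum by the chaperone UNC93B1 and cut by lysosomal proteases. All 7 receptors here signal through MyD88, and TLR4 also signals through TRIF (the product of Ticam1). The comparison of KO with WT asks whether receptors of the surface and the endosome differ when the cluster is missing.

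The deleted microRNAs are shown to set out what was searched for in the transcripts of the receptors. The mature sequences, from RefSeq on GRCm38.p6, run 5′ to 3′ with the seed (bases 2 to 8) in capitals. All lie on the minus strand of chromosome 16, at chr16:17124071-17124092, chr16:17124109-17124130 and chr16:17124456-17124477.
mmu-miR-130b-3p: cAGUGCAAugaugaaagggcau
mmu-miR-130b-5p: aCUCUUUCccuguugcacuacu
mmu-miR-301b-5p: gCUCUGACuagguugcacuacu
The 3 seeds differ from each other. Their matches, searched on the transcript strand, are TTGCACT for miR-130b-3p, GAAAGAG for miR-130b-5p and, for miR-301b-5p, GTCAGAG; the miR-301b-3p arm is named only. The longest annotated 3′ UTR (GENCODE M21) of each of the 10 genes held 0 copies of each run. Among 10707 tested genes with such a UTR, TTGCACT was present in 12.3%, GAAAGAG in 17.0% and GTCAGAG in 14.9%. The UTRs of the 10 genes were short, with a median of 340 bases (74 in Ly96 to 1321 in Tlr4), against a median of 1399 bases over the tested genes.

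The host transcript of the cluster, 2610318N02Rik, was listed at 0 CPM in all 3 KO samples and at 1.63, 2.43 and 2.07 CPM in WT. All 8 macrophage markers were listed. Their sum lay between 20042 and 20571 CPM in KO and between 18418 and 18936 CPM in WT, without overlap, and Lyz2, the most abundant, had 11636 to 12605 CPM in KO and 10325 to 10684 CPM in WT (limma, BH-adjusted p = 0.0855). Without Lyz2 the sum of the other 7 overlapped, at 7966 to 8406 CPM in KO and 7888 to 8253 CPM in WT. Of the 8 markers 4 had a positive and 4 a negative difference (median 0.0 in log2), with Csf1r and Lyz2 higher and Cd68 lower without overlap. Of the B cell markers 5 of 6 were listed, and their sum lay between 6.94 and 7.499 CPM in KO and between 7.08 and 7.68 CPM in WT, mostly from Cd79b, which was higher in every KO sample. The other 4 (Cd79a, Ms4a1, Pax5 and Ebf1), too low to be tested, were each lower in every KO sample and summed to 1.49 to 2.03 CPM in KO and 2.84 to 3.04 CPM in WT. The plasmacytoid dendritic markers (4 of 6 listed) summed to 171 to 177 CPM in KO and 165 to 178 CPM in WT, chiefly Tcf4. Without Tcf4 the sum still overlapped, at 39.1 to 49.1 CPM in KO and 41.0 to 45.7 CPM in WT. Of the 4, Siglech was lower in every KO sample (0.762 to 0.936 CPM against 1.03 to 1.27 CPM, limma, BH-adjusted p = 0.529). The rest overlapped. The neutrophil markers (7 of 8) summed to between 175 and 223 CPM in KO and between 196 and 216 CPM in WT, with Ngp the most abundant, and 1 of them, Mpo, fell (limma, BH-adjusted p = 0.0219). The conventional dendritic markers (4 of 6, chiefly Itgax) summed to between 140 and 158 CPM in KO and between 175 and 283 CPM in WT, and the stromal markers (5 of 6, chiefly Col1a2) to between 4.67 and 32.0 CPM in KO and between 43.7 and 50.6 CPM in WT, where Col3a1 fell (adjusted p = 0.0133). The part of these shifts in the values of the 10 genes was not tested. No listed marker was at 0 in all samples, and T and NK cell markers were not analysed here. In bulk samples, fewer cells of a type and less RNA per cell cannot be told apart.

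None of the 10 genes passed the test between KO and WT (limma on log2(CPM + 1), Benjamini-Hochberg (BH) adjusted p under 0.05 over all 11556 tested genes), where 1.27% of the tested genes did. All 10 passed the filter on low values. At an unadjusted p under 0.05 there were 3 of the 10, Tlr2, Tlr7 and Tlr9, each with the higher level in KO, against 12.5% of the tested genes in either direction, 5.24% in that direction and 7.3% in the other. The KO and WT samples did not overlap for 4 of the 10, Tlr7 and Tlr9 with KO higher and Tlr1 and Tlr13 with KO lower, as held for 17.7% of the tested genes (8.55% higher and 9.1% lower). The median log2 fold change of the 10 genes was 0.03, and that of all tested genes was -0.0003. The median absolute change was 0.062 for the 10 genes and 0.061 for all tested genes.

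**Figure D1:**
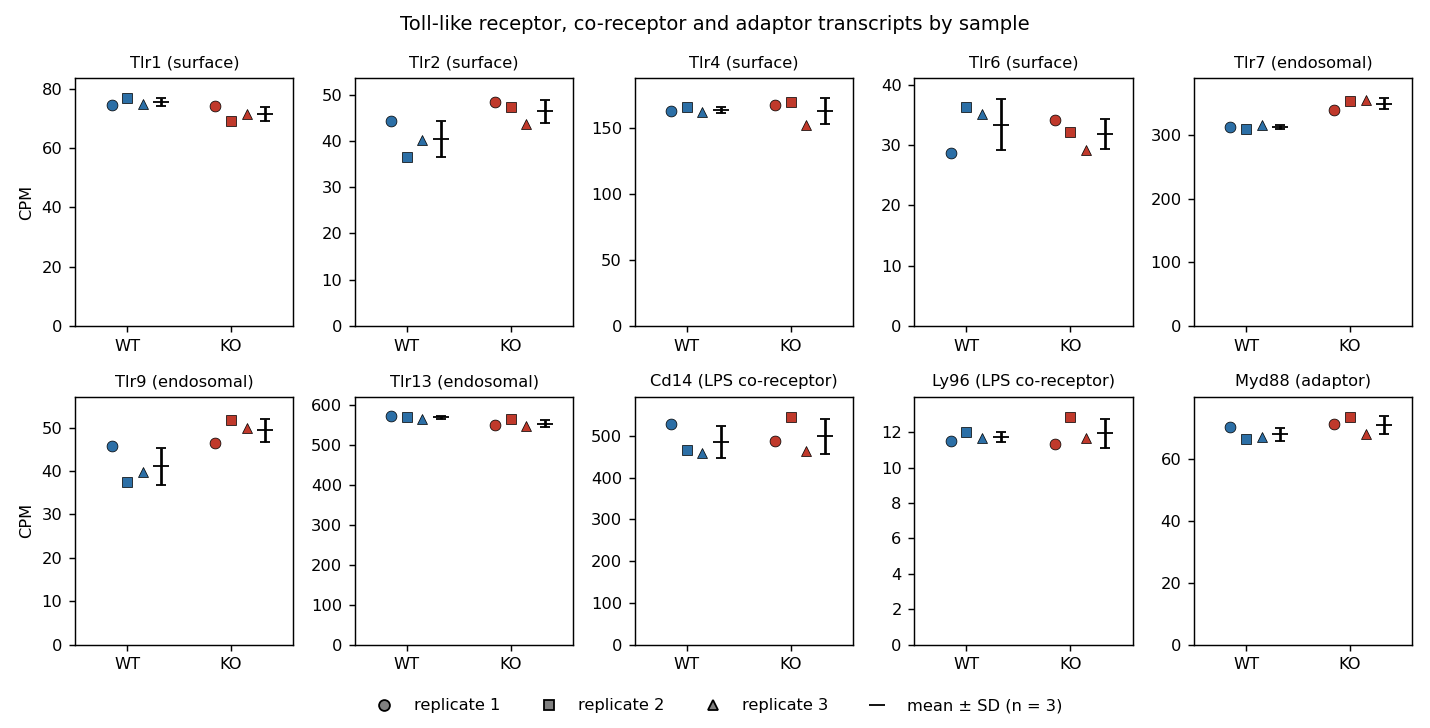
CPM of each of the 10 genes (vertical axes from 0) in the 3 WT and 3 KO samples, with the mean ± SD of each group. Tlr7 lies at 310 to 316 CPM in WT and 340 to 355 in KO, while Tlr4, Cd14 and Ly96 overlap between the groups.

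Of the surface receptors, Tlr4 was the most abundant and lay at the same level in both genotypes within its spread. Tlr4 stood at 167, 170 and 152 CPM in KO and at 163, 166 and 162 CPM in WT. The groups overlapped, with KO replicate 3 the lowest sample. In log2, KO minus WT was -0.007 (95% interval -0.11 to 0.10, limma, BH-adjusted p = 0.968). Its sign turned with the samples used, from -0.007 to 0.04 without KO replicate 3.

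Tlr2, which supplies the common chain of the lipoprotein receptors, stood at 48.4, 47.3 and 43.6 CPM in KO and at 44.4, 36.6 and 40.2 CPM in WT. The groups overlapped only through KO replicate 3 and WT replicate 1. KO exceeded WT by 0.20 in log2 (SE 0.0727, 95% interval 0.03 to 0.36, limma, BH-adjusted p = 0.304; exact two-sided permutation p = 0.2). Leaving out 1 sample at a time gave values from 0.13 (without WT replicate 2) to 0.27 (without WT replicate 1), none past the test (limma, BH-adjusted p between 0.104 and 0.637).

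Tlr1 and Tlr6 encode the alternative partners of TLR2. Tlr1 stood at 74.0, 69.2 and 71.3 CPM in KO and at 74.5, 76.9 and 74.9 CPM in WT. Every KO sample lay below every WT sample, by as little as the gap between 74.0 and 74.5. Tlr6 stood at 34.2, 32.1 and 29.2 CPM in KO and at 28.6, 36.3 and 35.2 CPM in WT, where WT replicate 1 was the lowest of all samples and the groups overlapped. The log2 fold change was -0.08 for Tlr1 (95% interval -0.17 to 0.01, limma, BH-adjusted p = 0.484). It was -0.06 for Tlr6, with an interval of -0.28 to 0.15 (limma, BH-adjusted p = 0.842), and 0.000 without WT replicate 2.

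Tlr1 and Tlr6 are neighbours on chromosome 5 and nearly identical over part of their length, so their separate values are uncertain. Of the 50-base runs in Tlr1 transcripts, 13.6% also occur in Tlr6, and 12.3% of those in Tlr6 occur in Tlr1. No other pair among the 10 Toll-like receptors listed (Tlr3, Tlr5 and Tlr8 included) shared a 50-base run. The longest exact run common to the longest Tlr1 and Tlr6 transcripts has 229 bases (GENCODE M21, GRCm38), shown because a read inside it fits both genes.
Tlr1 and Tlr6: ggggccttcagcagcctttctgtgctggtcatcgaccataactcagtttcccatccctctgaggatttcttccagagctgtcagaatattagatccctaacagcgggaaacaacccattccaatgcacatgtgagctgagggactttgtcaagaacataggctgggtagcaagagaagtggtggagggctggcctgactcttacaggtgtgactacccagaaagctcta

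Among the endosomal receptors, Tlr7 came closest to the threshold. Tlr7 stood at 340, 353 and 355 CPM in KO and at 313, 310 and 316 CPM in WT. The groups were separate, and the SD was 8.30 CPM in KO and 3.20 CPM in WT (n = 3). The fitted log2 difference was 0.16 (SE 0.0315, 95% interval 0.09 to 0.23), a ratio of 1.12 on the CPM + 1 scale. The limma, BH-adjusted p was 0.0613, with an exact two-sided permutation p of 0.1, the smallest that 3 samples against 3 allow. It crossed the threshold under quantile normalization (0.19, limma, BH-adjusted p = 0.0261) and with sample weights (0.16, adjusted p = 0.0484), and in none of the fits that left out a sample (0.15 to 0.18, adjusted p between 0.0741 and 0.239).

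Tlr9 had the widest difference of the 10 genes, with the spread to match. It stood at 46.4, 51.8 and 49.9 CPM in KO and at 45.8, 37.6 and 39.7 CPM in WT. The groups were separate only by the gap between KO replicate 1 and WT replicate 1. Tlr9 had a log2 fold change of 0.26 (SE 0.0752, 95% interval 0.09 to 0.44, limma, BH-adjusted p = 0.196; exact permutation p = 0.1). Without WT replicate 1 it was 0.34 and passed the test (limma, BH-adjusted p = 0.0389), and without WT replicate 2 it was 0.21 (adjusted p = 0.472).

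The mean log2 level of 36 tested interferon-stimulated genes lay apart in the same sample that was lowest for Tlr9 and Tlr2. It was 4.80, 5.02 and 4.74 in KO and 4.73, 4.20 and 4.63 in WT. Its part in the values of Tlr9, Tlr2 and Tlr7 was not tested. For Tlr7, WT replicate 2 was also the lowest of all samples, at 310 CPM beside 313 and 316 in the other WT samples.

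Tlr13 was the most abundant receptor and lay slightly lower in KO. It stood at 549, 563 and 545 CPM in KO and at 572, 568 and 564 CPM in WT. The groups did not overlap, though KO replicate 2 and WT replicate 3 were nearly equal. Tlr13 had a log2 fold change of -0.04 (95% interval -0.11 to 0.03, limma, BH-adjusted p = 0.643).

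The surface receptors overlapped between genotypes as a class, the sum of the 3 endosomal receptors did not, and the contrast of the classes overlapped. The mean log2 fold change was 0.01 over the 4 surface receptors (-0.08 to 0.20) and 0.13 over the 3 endosomal receptors (-0.04 to 0.26). The difference of 0.11 is a description with no test. In each sample, the mean log2 level of the endosomal receptors exceeded that of the surface receptors by 1.599, 1.73 and 1.79 in KO and by 1.67, 1.54 and 1.57 in WT. KO replicate 1 lay among the WT samples, so the groups overlapped. Per kb of exon, the endosomal receptors made up 74.3 to 76.3% of the CPM of the 7 receptors in KO and 74.5 to 75.1% in WT. The summed CPM of the surface class was 312 ± 14.6 in KO and 313 ± 2.69 in WT, and that of the endosomal class 951 ± 16.4 and 922 ± 7.87 (mean ± SD, n = 3). The endosomal sum was higher in every KO sample (935, 968 and 950.3 CPM) than in every WT sample (930.4, 915 and 919.98 CPM). It leaves out Tlr8 and Tlr3, further endosomal receptors that overlapped between the groups. Tlr8 stood at 271, 271 and 288 CPM in KO and at 285, 261 and 280 CPM in WT. KO replicate 1 and WT replicate 1 were close in the sum of 3 (935 and 930.4 CPM) but stood at 271 and 285 CPM for Tlr8. For Tlr3 they stood at 16.6 and 12.2 CPM. With both genes counted, KO replicate 1 would lie below WT replicate 1 and the groups would overlap. The separation thus holds for these 3 genes only.

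Within the endosomal class, Tlr7 and Tlr9 took a larger share in every KO sample and Tlr13 a smaller one. These shares compare genes within a library and do not depend on how libraries were scaled to each other. Per kb of exon, Tlr7 made up 37.1, 37.2 and 38.2% of the class in KO and 34.4, 34.7 and 35.2% in WT. Tlr13 made up 56.9, 56.4 and 55.6% in KO and 59.7, 60.4 and 59.6% in WT. Tlr9 made up 5.96, 6.41 and 6.29% in KO and 5.92, 4.94 and 5.19% in WT. The shares were formed after the values of the 3 genes were known and carry no test. They are parts of the same sum, so they are not separate observations, and Tlr8 and Tlr3 are not counted in it. Tlr7 and Tlr13 both lie on the X chromosome, on which no gene passed the test.

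**Figure D2:**
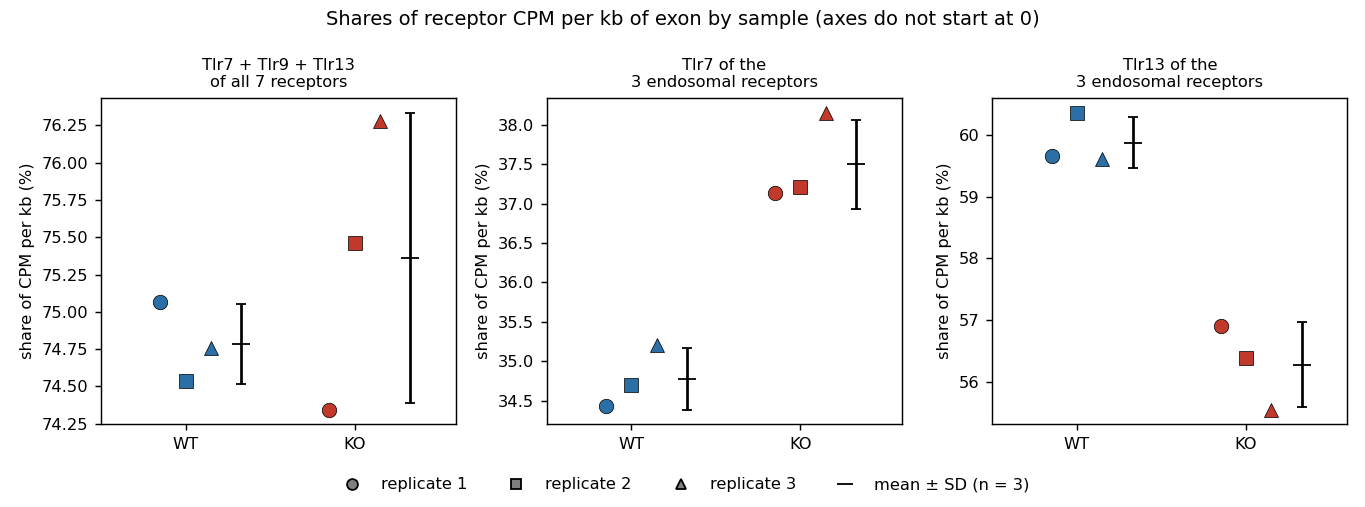
Shares of CPM per kb of exon by sample (%, axes not from 0): the 3 endosomal receptors among all 7 receptors, and Tlr7 and Tlr13 among the 3 endosomal receptors, with the mean ± SD of each group. The first share overlaps between genotypes, Tlr7 is higher in KO (37.1 to 38.2% against 34.4 to 35.2%) and Tlr13 lower (55.6 to 56.9% against 59.6 to 60.4%).

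The lipopolysaccharide co-receptors lay at like levels in both genotypes. Cd14, whose product hands lipopolysaccharide to the receptor, stood at 488, 544 and 463 CPM in KO and at 528, 466 and 460 CPM in WT. Ly96, whose product MD-2 holds it against TLR4, stood at 11.3, 12.9 and 11.7 CPM in KO and at 11.5, 12.0 and 11.7 CPM in WT. Both overlapped widely, and the SD of Cd14 was 41.5 CPM in KO and 37.6 CPM in WT. The log2 fold change was 0.04 for Cd14 (95% interval -0.12 to 0.20, limma, BH-adjusted p = 0.871) and 0.02 for Ly96 (-0.14 to 0.18, adjusted p = 0.937). Without KO replicate 2 both turned sign, to -0.03.

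Myd88, the adaptor that carries the signal of all 7 receptors, stood at 71.2, 73.5 and 67.9 CPM in KO and at 70.2, 66.4 and 67.0 CPM in WT. The groups overlapped, and the log2 fold change was 0.06 (95% interval -0.04 to 0.16, limma, BH-adjusted p = 0.631). In the annotation, 11.3% of its exon bases overlap exons of Acaa1a on the opposite strand, and with the strand setting unknown such reads cannot be assigned.

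**Figure D3:**
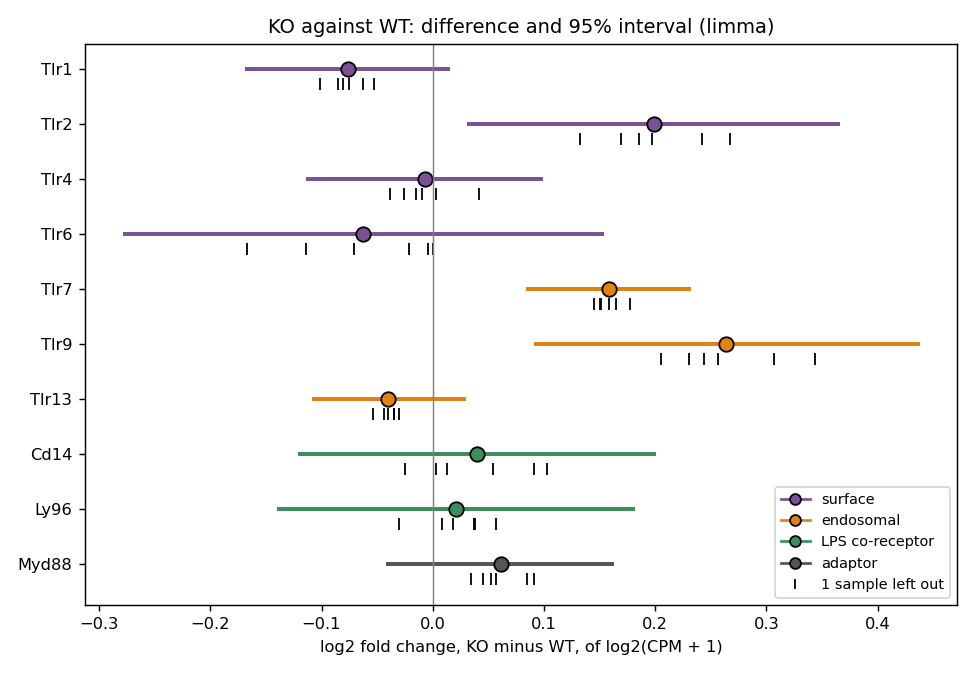
KO minus WT difference of log2(CPM + 1) for the 10 genes (points), with limma's 95% interval (lines) and the values when 1 sample is left out (ticks). The intervals of Tlr2, Tlr7 and Tlr9 lie above 0 before adjustment, and those of the other 7 genes span 0.

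The order of the mean levels was the same in KO and WT. Per kb of merged exon, which allows genes to be compared, Cd14 led with 284 CPM per kb over the 6 samples (range 265.5 to 314), followed by Tlr13 with 130 (127 to 133) and Tlr7 with 81.1 (75.9 to 87.0). Their ranges were separate from each other and from all lower members. Tlr4 followed with 29.3 CPM per kb and Myd88 with 26.9, and these neighbours overlapped between samples. Tlr1 had 21.9 CPM per kb, separate from both its neighbours. Tlr2 (12.2 to 16.0), Tlr9 (10.8 to 14.9) and Ly96 (11.1 to 12.6) formed a chain of overlapping ranges, and Tlr6 was the lowest with 8.75. Of the TLR4 co-receptors, Cd14 lay above and Ly96 below the receptor. With the longest transcript as the length, Ly96 moved ahead of Tlr2 and Tlr9, at 17.8 CPM per kb, and no other order changed.

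**Figure D4:**
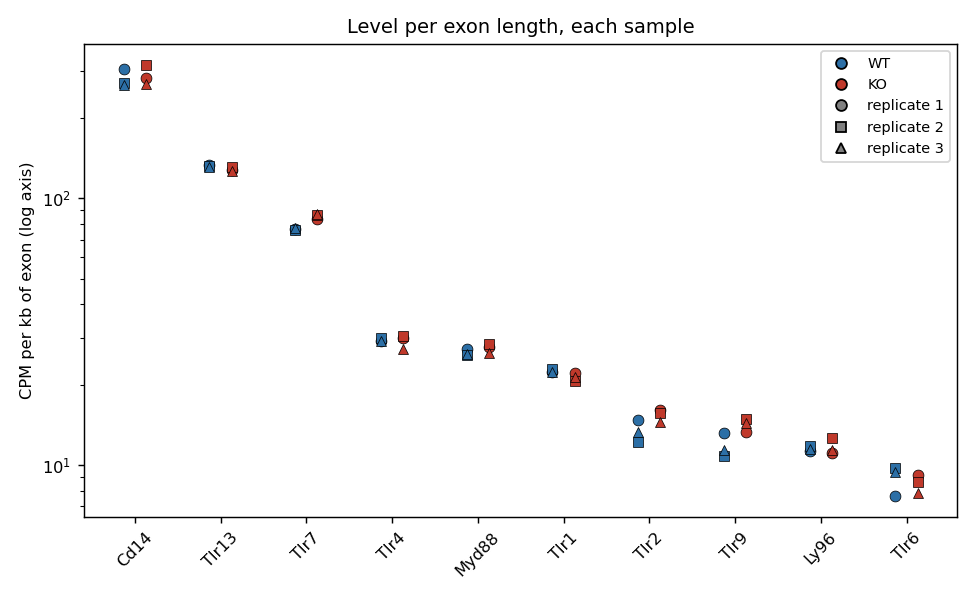
CPM per kb of merged exon (log axis) of the 10 genes in each of the 6 samples, ordered by mean. Cd14, Tlr13 and Tlr7 lie apart at the top, and Tlr2, Tlr9 and Ly96 overlap near 11 to 16 CPM per kb.

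Promoters of 6 of the 10 genes were matched in RefSeq (GRCm38.p6, 250 bases before to 50 after the start). They were searched on both strands for the core repeat bound by interferon regulatory factors (GAAA, any 2 bases, then GAAA) and for GAGGAAGT, a run bound by the macrophage factor PU.1. The first is in 3.44% of 32851 promoters of that length and the second in 3.2%. Windows with a match are shown 5′ to 3′ on the gene's strand with the match in capitals, at chr9:119340039-119340068 (minus strand), chr5:64959263-64959292 (minus), chr5:64933564-64933591 (minus) and chr9:106222598-106222625 (plus).
Myd88: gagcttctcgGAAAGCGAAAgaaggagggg
Tlr6: tgactattctTTTCTCTTTCactttctgtt
Tlr1: ttaaatgttgGAGGAAGTaggagcttga
Tlr9: tgaaagtgtcACTTCCTCaattctctga
The first motif reads on the gene's strand in Myd88 and on the other strand in Tlr6, where a second copy overlaps it. The second motif reads on the gene's strand in Tlr1 and on the other strand in Tlr9. The 4 genes with a match did not share a direction, with log2 fold changes of 0.06, -0.06, -0.08 and 0.26 in the order shown.

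By position, the 10 genes differed in how far they lay from a gene that passed the test. Counted in tested genes along the chromosome (GENCODE M21 order), the nearest such gene was 2 away for Tlr4 and 9 away for Ly96. For Tlr1, Tlr6, Tlr2, Tlr9, Cd14 and Myd88 it was between 24 and 178 away. The usual distance over all tested genes was not computed.

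Of the other genes of the pathway, 1 passed the test. Of 81 genes in 9 lists of receptors, accessory proteins, traffic, proteases, adaptors, kinases, transcription factors, inhibitors and targets, 70 were tested, 1 rose and 0 fell (limma, BH-adjusted p under 0.05; 0.485% of all tested genes were higher and 0.787% lower). At an unadjusted p under 0.05 there were 15 of the 70, 10 higher and 5 lower, against 12.5% of all tested genes (5.24% higher and 7.3% lower). The median log2 fold change of the 70 was 0.02. The run TTGCACT was present in the 3′ UTR of 6 of these 70 genes (8.6%), none of which passed the test.

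The gene that rose was Map3k7, which encodes TAK1, the kinase that relays the signal from TRAF6 to NF-kappaB and MAP kinases. It stood at 77.5, 78.3 and 77.1 CPM in KO and at 63.9, 64.3 and 60.8 CPM in WT. The groups were far apart beside their SD of 0.611 CPM in KO and 1.93 CPM in WT. The log2 fold change was 0.30 (SE 0.0383, 95% interval 0.21 to 0.39, limma, BH-adjusted p = 0.00905), and without WT replicate 3 it was 0.27 and just missed the threshold (adjusted p = 0.0522). Map3k7 lies on chromosome 4, 11 tested genes from the next gene past the test. Its 3′ UTR holds no TTGCACT.

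Of the 3 other Toll-like receptors tested, 0 passed. Tlr8, a further endosomal receptor, stood at 271, 271 and 288 CPM in KO and at 285, 261 and 280 CPM in WT, which overlap. Tlr3, the endosomal receptor of double-stranded RNA, stood at 16.6, 14.2 and 17.0 CPM in KO and at 12.2, 12.7 and 16.0 CPM in WT (difference 0.21 in log2, limma, BH-adjusted p = 0.479). Tlr11 and Tlr12 were not analysed here.

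Of the genes that move and cut the endosomal receptors, 0 passed the test. Of 9 traffic genes, 3 reached an unadjusted p under 0.05 (2 with KO higher, 1 with KO lower), beside 12.5% of all tested genes. Slc15a4, a lysosomal transporter needed for TLR7 and TLR9 signalling, stood at 55.9, 57.2 and 67.8 CPM in KO and at 49.9, 46.9 and 47.5 CPM in WT (difference 0.32 in log2, limma, BH-adjusted p = 0.0998). Its groups did not overlap. Slc15a3, a related transporter, stood at 291, 300.1 and 289 CPM in KO and at 311, 357 and 376 CPM in WT, with every KO sample lower (-0.24, limma, BH-adjusted p = 0.157), and passed without WT replicate 1 (-0.32, adjusted p = 0.00848). Unc93b1, chosen like Slc15a3 after its values were seen, lay between 617 and 624 CPM in KO and between 574 and 596 CPM in WT (0.08, limma, BH-adjusted p = 0.302). The chaperone gene Hsp90b1, the most abundant, lay between 1017 and 1086 CPM in KO and between 1049 and 1101 CPM in WT. Of the 4 proteases, Ctsl stood at 1791, 1657 and 1805 CPM in KO and at 1987, 2235 and 2399 CPM in WT (-0.33, limma, BH-adjusted p = 0.0665), and passed without WT replicate 1 (-0.40, adjusted p = 0.00953). The most abundant protease, Ctsb, overlapped between the groups (-0.03, limma, BH-adjusted p = 0.877).

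Of 4 other adaptors and 6 accessory genes tested, 0 passed the test. At an unadjusted p under 0.05 (limma) there were 2 of the 4, Tirap higher and Ticam1 lower in KO. Among the 6 there was 1, Ly86, higher in KO, beside 12.5% of all tested genes. The groups did not overlap for 2 of the 4 (Ticam1 and Ticam2) and 1 of the 6 (Ly86), beside 17.7%. Ticam1, which encodes TRIF, stood at 30.8, 30.4 and 31.4 CPM in KO and at 34.0, 33.7 and 33.6 CPM in WT (log2 difference of -0.125, adjusted p = 0.274 by limma and BH). Pik3ap1, which links the receptors to phosphoinositide 3-kinase, lay between 757 and 789 CPM in KO and between 761 and 775 CPM in WT. Ly86, whose product MD-1 binds the receptor homolog CD180, lay between 161 and 173 CPM in KO and between 155 and 158 CPM in WT (0.10, limma, BH-adjusted p = 0.324). Cd36, a scavenger receptor that assists TLR2, overlapped widely, between 2851 and 3245 CPM in KO and between 2899 and 3718 CPM in WT.

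Downstream of the receptors, Irf7, which drives interferon genes after endosomal recognition, stood at 28.4, 28.7 and 28.5 CPM in KO and at 21.6, 10.6 and 18.2 CPM in WT. The KO samples were nearly equal, and the WT samples varied with WT replicate 2 lowest. The log2 fold change was 0.79 (limma, BH-adjusted p = 0.153), and 0.985 without WT replicate 1, where it passed (adjusted p = 0.0437). Irf8, a factor of the macrophage lineage, lay between 219 and 224 CPM in KO and between 205 and 211 CPM in WT (0.08, limma, BH-adjusted p = 0.335).

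Inhibitors of the pathway did not pass the test. Sigirr, a decoy-like member of the receptor superfamily, stood at 1.88, 2.27 and 2.61 CPM in KO and at 1.68, 1.03 and 1.02 CPM in WT (difference 0.55 in log2, limma, BH-adjusted p = 0.186), on a scale that understates low genes. Nrros, whose product restrains Toll-like receptors and reactive oxygen, lay between 281 and 283 CPM in KO and between 261 and 274 CPM in WT (0.07, limma, BH-adjusted p = 0.457).

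Of 10 tested target genes of NF-kappaB, 0 passed the test and 0 had an unadjusted p under 0.05 (limma). Of all tested genes, 1.27% and 12.5% did, so counts this low among 10 genes are near those shares. Zfp36, whose product degrades cytokine mRNA, was the most abundant, between 113 and 122 CPM in KO and between 105 and 119 CPM in WT. Cxcl2, a neutrophil chemokine, stood at 2.08, 1.24 and 1.54 CPM in KO and at 1.41, 0.768 and 1.02 CPM in WT (limma, BH-adjusted p = 0.452). Tnf and Tab2 are shown with their match to the miR-130b-3p seed, in capitals within the 3′ UTR, because they are the cytokine and the TAK1 partner among the 6 pathway genes with TTGCACT.
Tnf: tctatttatatTTGCACTtattatttatt
Tab2: ccttccgggctTTGCACTgtgagtatgga
Tnf differed by 0.14 (limma, BH-adjusted p = 0.571), with overlap between the groups, and Tab2 by 0.07 (adjusted p = 0.378). Tab2 was higher in every KO sample (209 to 213 CPM against 199 to 202 CPM), as held for 8.55% of all tested genes. The rest of the 6 did not share a direction. Map3k8 (0.023) and Peli1 (0.015) were slightly higher in KO, and Cd36 (-0.129) and Cyld (-0.026) lower.

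Of 36 tested interferon-stimulated genes, 0 passed the test, 16 had an unadjusted p under 0.05 and all 36 had a positive log2 fold change, with a median of 0.31 (limma). Of all tested genes, 5.24% were higher at that p and 49.9% had a positive difference. The shift rested in part on single samples. Without WT replicate 2 the median was 0.13, with 9 genes under that p and 34 positive, and without KO replicate 2 it was 0.20, with 6 and 34. Ifitm3, an antiviral membrane protein and the most abundant, stood at 547, 628 and 538 CPM in KO and at 522, 434 and 489 CPM in WT (0.25, limma, BH-adjusted p = 0.238). Ifi27l2a, which had the smallest p, stood at 121, 131 and 124 CPM in KO and at 113, 70.3 and 86.5 CPM in WT (0.50, adjusted p = 0.184). In both genes WT replicate 2 was the lowest sample.

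**Figure D5:**
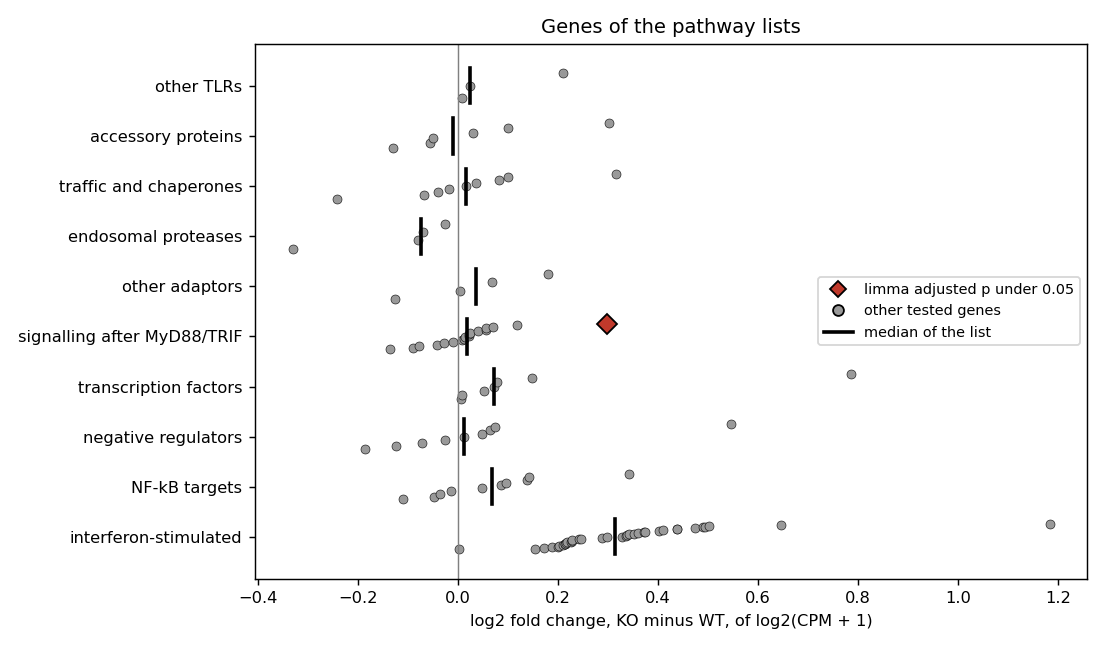
KO minus WT difference of log2(CPM + 1) for the tested genes of 9 pathway lists and of the interferon-stimulated list, each point a gene and each bar the list's median. Map3k7, at 0.30, is the gene past the test, and the 36 interferon-stimulated genes lie above 0 with all 6 samples, 34 of them without WT replicate 2.

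The genes most like Tlr7 over the 6 samples were Ceacam1 (Pearson's r = 0.991 of log2(CPM + 1)), Cfap418 (0.989) and Dpys (0.987). Those most like Tlr2 were Gemin7 (0.992), H3f3b (0.991) and Akna (0.984). The search ran over 11402 tested genes with a symbol, of which 53 reached 0.95 with Tlr7 and 51 with Tlr2. These values describe the same 6 libraries and carry no test. Of the 6 genes, Cfap418 and Dpys passed the test between KO and WT (limma, BH-adjusted p = 0.0265 and 0.00328). Both were picked for a pattern like that of Tlr7, which was separate between the groups, so their passing is no independent result.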

How the data were processed

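RNA sequencing of total RNA was paired-end, per the labels' protocols. The authors deposited 1 table of CPM per gene for 6 samples. The submitters' processing notes name GRCm39, while aligner, counter, strand and scaling are not given in the sources used here. Columns summed to between 989223 and 1018258, so a scaling between libraries is included. Depth is unknown: of values under 0.4 CPM, 27.9% to 60% per sample fell 0.1 or less from whole read steps, so reads were not recovered and no counting interval is given.

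The 11556 genes reaching 1 CPM in 3 or more samples were tested on log2(CPM + 1), with fold changes understated for low genes, by limma 3.58.1 (R 4.3.3) with a trend, two-sided, BH over all tested genes, threshold 0.05. The fit was tested on simulated data with changes of 0.5, 1 and 2 in log2. It found 87%, 98.9% and 99.7% of them, and 4.11% of its calls were false. Smaller changes, such as those of the 10 genes, were not simulated. Exon lengths, gene order and UTRs were read from GENCODE M21 (GRCm38), not the build of the notes. The members and lists were chosen with earlier results of these data known. Genes were named by rule: the 10 members, list genes past the test or else the smallest p and the most abundant, the most abundant marker of each list, and the 3 most similar genes to 1 receptor of each class. The number of unused sample columns was 0, and an unnamed last column with a single value was not used. Alternatives were pseudocounts, filters, scalings, moderation, weights, a replicate block and leaving out samples. Text handling used Python 3.11.15.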

Additional observations from a re-analysis of the deposited data

How the results depend on the processing

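Across 17 alternatives, 161 of 170 values of the 10 genes kept their direction and their side of the threshold, 3 crossed it and 6 turned sign. The count of the 10 genes past the test was 0, and 1 under quantile normalization and with sample weights (Tlr7); leaving out a sample gave 0 to 1 (Tlr9, without WT replicate 1). Sign turned for Tlr4 (0.001 under quantile normalization, 0.003 without WT replicate 2; -0.038 to 0.042 with a sample left out), Tlr6 (-0.167 to 0.000), Cd14 (-0.025 to 0.103) and Ly96 (-0.030 to 0.057); the cause was not tested. The pathway lists had 1 gene past the test, 2 with sample weights (Map3k7 and Ctsl) and 0 (without WT replicate 3) to 4 (without WT replicate 1: Map3k7, Ctsl, Irf7 and Slc15a3) with a sample left out. Over all genes the count of 147 was 74 without a trend and 55 to 243 with a sample left out (243 without WT replicate 1, and 63, 58 and 55 where KO replicate 1, WT replicate 2 or WT replicate 3 was dropped). The endosomal minus surface difference of 0.114 ranged from 0.072 to 0.168 with a sample left out. Replicate numbers are names only: same-numbered samples had correlations of 0.000, 0.083 and 0.065 between their deviations from the group means, and the fit with a replicate block gave 142 genes and 0 of the 10. Other scalings moved the median of all genes to at most 0.0034. Of alternatives chosen after seeing the data, the longest transcript as length moved 3 ranks in the order of levels, and leaving out a sample put the median of the interferon-stimulated genes between 0.128 (without WT replicate 2) and 0.418 (without WT replicate 1). Depth is unknown, so what it limits cannot be stated.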
